A study of Mus musculus with 8 samples.

Results

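The potassium channel genes of the mouse were taken as the protein-coding genes of the GENCODE annotation (release for GRCm38, the same build as mm10) whose symbol starts with Kcn. There were 94 of them among 21951 protein-coding genes. A binding region was counted at a member when its summit lay in the gene body, or when the member had the nearest protein-coding transcription start site (TSS) within 100 kb. This gave 429 of 46070 regions (0.931%), of which 281 lay in a member's body and 148 were linked by the nearest start site only. The link names a neighbour of the region, not a target of the factor. For 99 of the 429 regions, all in a member's body, no member had the nearest start site within 100 kb. There the nearest start was another gene's, or the member's own over 100 kb away. Linked to more than 1 member were 6 regions.

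The regions come from chromatin immunoprecipitation sequencing (ChIP-seq) of the transcription factors NFIA, NFIB and NFIX. The cells were granule neuron progenitors from the cerebellum of mice at postnatal day 7, the dividing precursors of cerebellar granule neurons, freed from the tissue with papain. For every factor there was 1 library of CD1 animals and 1 of animals whose mixed background is described as resembling outbred CD1. They are called CD1 and Mixed below. No genotype or treatment set the groups apart, and 2 input samples were not analysed here. The labels and the series text name different suppliers for the NFIB antibody, and neither says whether libraries came from separate animals, so the spread over libraries may be technical. The peak lists held 7497 (NfiX CD1) to 36431 (NfiB CD1) peaks, and the number of reads behind them is unknown. Peaks do not measure expression, so the labelled cell type could not be checked from them. Regions held by all 6 libraries lay at 4 of 10 granule progenitor markers (Gli2, Mycn, Neurod1 and Pax6), 2 of 6 astrocyte and Bergmann glia markers, 2 of 4 Purkinje cell markers and 1 of 4 markers of the oligodendrocyte lineage, where 13.1% of all protein-coding genes had one. With so few genes per list, no difference between lists is read.

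Potassium channels set the resting potential of neurons and end their action potentials. Voltage-gated alpha subunits form the pore of delayed, A-type and M-type currents, inward rectifiers and two-pore channels carry resting and leak currents, and auxiliary subunits change the gating or transport of the pore. In the cerebellum, leak and A-type currents appear as granule cells mature, and a point mutation of Kcnj6 causes the loss of granule cells in the weaver mouse. NFI proteins are transcription factors of neural development that bind DNA as dimers, at a palindrome of TTGGC and GCCAA with 5 bases between them.

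Sequences around summits were read only inside annotated exons (GENCODE transcripts) and RefSeq promoters, both on GRCm38, which gave 34 windows of 101 bp at members. Of the windows that hold the palindrome, or its core of TGGC and GCCA with the same 5 bases between, 4 are shown because they put an NFI-type sequence under a measured summit. Each is the plus strand, 5′ to 3′, with the 15 bases of arms and gap in capitals.
Kcnd2, chr6:21684458-21684486, in an intron, exon of 5330437M03Rik: gccacgaCTGGCACAAAGCCAGattagag
Kcnh2, chr5:24329398-24329426, in a UTR: actgcctCTGGCATGAAGCCAGaatggct
Kcnb2, chr1:15720868-15720896, in a UTR: tcagtaaCTGGCCCTTTGCCAActatttt
Kcnt1, chr2:25929895-25929923, in an exon of Camsap1: atgctttTTGGCCCCGTGCCAGtgagttt

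All 4 hold the core and not the full palindrome. The centre of the Kcnd2 match lay 36 bp from the summit of a region held by all 6 libraries, and the Kcnh2 match lay -11 bp from the summit of a region of 5 libraries. The regions at Kcnb2 and Kcnt1 held peaks of 3 libraries. Over both strands, the full palindrome stood in 1 of 34 member windows (2.94%) and in 0.884% of the 4074 windows of all regions. The core stood in 6 of 34 (17.6%) against 5.87%, and the single element TTGGCA in 10 of 34 (29.4%) against 19.1%. Every full palindrome holds the core, and a TTGGCA can lie within either. The core was chosen after the data were seen. Common regions, those held by all 6 libraries, gave 4 of the 34 windows and 266 of the 4074. The core stood in 25.6% of the 266, and the member windows were not matched to the others for this. The 34 windows stand for a small part of the 429 member regions, and the shares describe exons and promoters only.

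Among the 94 genes, 69 had at least 1 region of any library (73.4%, 95% Wilson interval 63.7 to 81.3), where 48.2% of all protein-coding genes had one. A region held by all 6 libraries, called common here, lay at 30 of the 94 genes (31.9%, 23.4 to 41.9), where 13.1% of all protein-coding genes had one. Intervals cover counting error only and treat genes or regions as independent, although regions cluster within genes. Since the members were chosen with results of these data known, no test is given. Whether an interval includes a background share is described below and is not read as a test. Counted by region, 60 of the 429 member regions were common (14.0%, 11 to 17.6), against 13.2% of all regions. The longest run of regions was at Kcnd3, the pore subunit of an A-type current, with 29 regions of which 8 were common. Kcna10, a voltage-gated subunit, had 4 common regions among 6. Kcnma1 (the BK channel pore), Kcnh7 (an ether-a-go-go related subunit), Kcnip1 and Kcnip4 (calcium-binding partners of A-type channels) and Kcnn3 (a small-conductance calcium-activated channel) had 3 each. A further 11 genes had 2 and 12 had 1. The list of NfiX CD1 set much of this count: without that library 118 member regions at 47 member genes were common, against 21.2% of all genes.

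**Figure D1:**
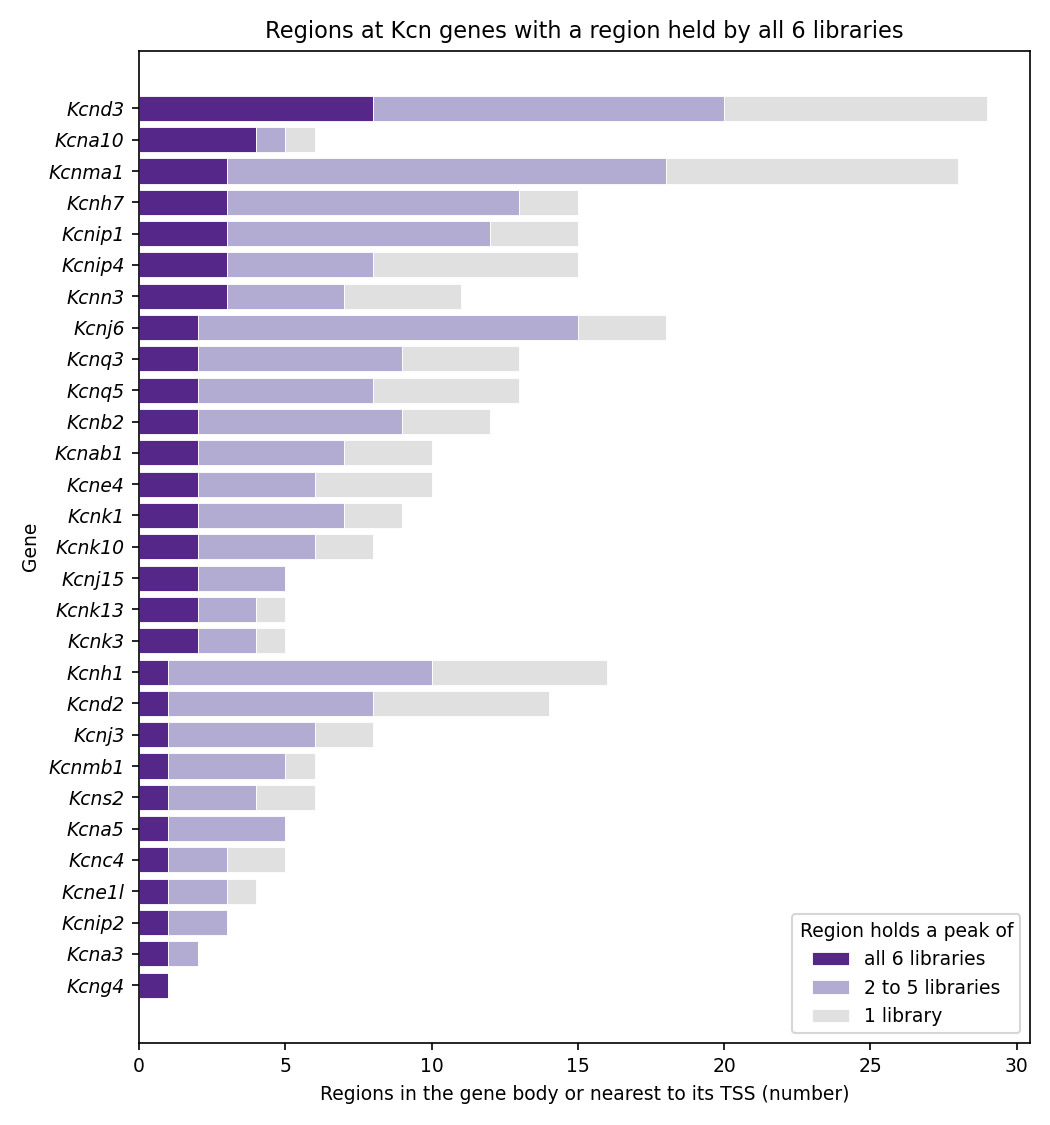
Number of regions (horizontal axis) at each of 29 of the 30 Kcn genes with a common region (vertical axis). Dark bars count regions with peaks of all 6 libraries, lighter bars those of 2 to 5 libraries and grey bars those of 1 library. Kcnd3 has 8 dark of 29 regions, whereas Kcna10 has 4 dark of 6.

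Gene length moved with these counts. The median length of the 94 genes was 30.8 kb, against 17.4 kb over all protein-coding genes. Among genes of 200 kb or more, 12 of 18 members (66.7%, 43.7 to 83.7) and 63.1% of all genes had a common region. Between 50 and 200 kb, 5 of 18 members (27.8%, 12.5 to 50.9) and 24.3% of all genes had one. In these long genes the members' intervals include the share of all genes. Among shorter genes the members stood higher: 8 of 35 (22.9%, 12.1 to 39.0) against 9.27% from 10 to 50 kb, and 5 of 23 (21.7%, 9.66 to 41.9) against 5.53% under 10 kb. The stretch of genome whose summits would be linked to a gene was also longer for members, with a median of 107 against 52.1 kb. Among genes with a stretch over 114 kb, 24 of 43 members (55.8%, 41.1 to 69.6) had a common region, against 33.6% of all genes, and the members' median stretch there was 212 against 175 kb. In the 3 shorter ranges the members' intervals include the share of all genes: 5 of 27 (18.5%, 8.18 to 36.7) against 12.7% from 52.1 to 114 kb, 1 of 15 (6.67%, 1.19 to 29.8) against 4.5% from 24.9 to 52.1 kb, and 0 of 9, which allows up to 33.3%, against 1.77% below. Per Mb of gene body, members held 27.0 regions and 3.37 common regions, where all gene bodies held 22.3 and 2.64. How far length and neighbouring space account for the members' share was not tested.

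**Figure D2:**
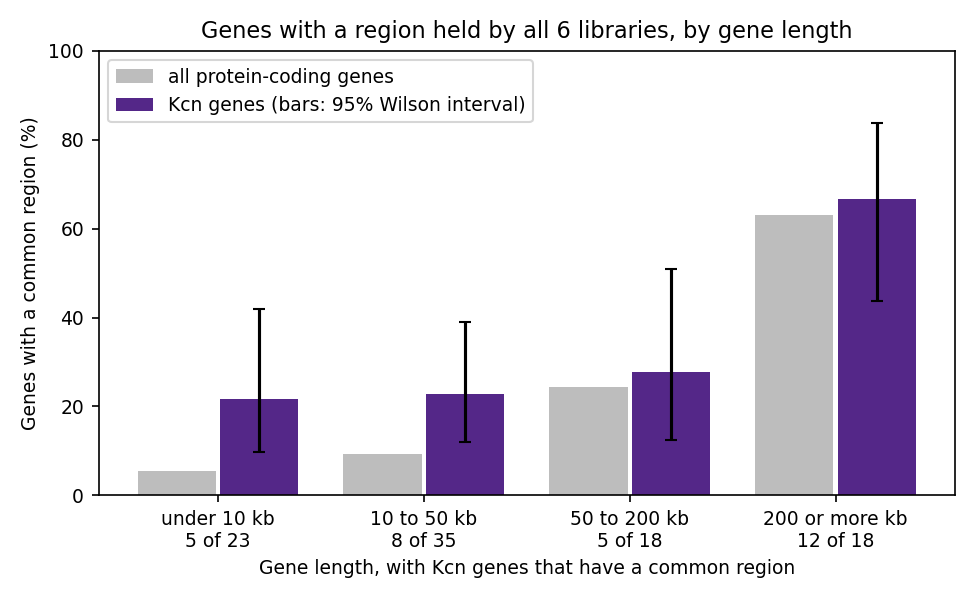
Share of genes with a common region (vertical axis, %) in 4 ranges of gene length (horizontal axis). Grey bars are all protein-coding genes and dark bars Kcn genes with 95% Wilson intervals. In the 2 ranges of 50 kb or more the intervals include the grey bars.

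Of the 25 genes without any region, 23 were at most 21.2 kb long. The exceptions were Kcnu1 (88.3 kb), a channel known from sperm, and Kcns3 (60.9 kb), a silent modifier of delayed rectifiers. Kcnd1 (16.0 kb), the third A-type pore gene, was also among the 25. Its relatives Kcnd2 and Kcnd3 both had common regions.

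By role, the auxiliary subunits and regulators had a common region at 7 of 17 genes (41.2%), the voltage-gated alpha subunits at 14 of 40 (35.0%), the two-pore channels at 4 of 14 (28.6%), the calcium- and sodium-activated channels at 2 of 8 (25%) and the inward rectifiers at 3 of 15 (20%). All 5 shares lay above the 13.1% of all genes, with few genes in each. The median gene length of the 5 groups was 20.6 to 122 kb, against 17.4 kb over all protein-coding genes. Within the voltage-gated genes, common regions lay at 2 of 3 Kcnd genes, 3 of 8 Kcna genes, 2 of 5 Kcnq genes and 2 of 8 Kcnh genes. They lay at 1 of 4 Kcnc genes, 1 of 4 Kcng genes, 0 of 2 Kcnv genes and not at Kcnf1. Among auxiliary genes they lay at 3 of 4 Kcnip genes, 2 of 5 Kcne genes, 1 of 3 Kcnab genes and 1 of 4 Kcnmb genes, and not at Kcnrg.

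The values that follow are fold enrichments at the summit over local background, made by the authors' peak caller, in the order NfiA CD1, NfiA Mixed, NfiB CD1, NfiB Mixed, NfiX CD1 and NfiX Mixed. They rank peaks within 1 list, so their order between lists is not read. Signed distances are from the nearest protein-coding start site of the named gene, negative upstream. Regions were ranked by the mean, over the 6 lists, of the percentile of their fold.

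Among the voltage-gated alpha subunits the highest region lay between Kcna2 and Kcna10. It was at chr3:107172408-107173147, -10.3 kb from Kcna10, with folds of 12.6, 19.5, 23.0, 25.9, 12.5 and 25 and a mean percentile of 98.0. Beside it lay chr3:107175275-107176156, -7.38 kb from Kcna10, with folds of 12.7, 18.1, 22.7, 25, 8.0 and 20.5. The other common regions of this interval lay -28.8 kb (6.59 to 16.1-fold) and -6.24 kb (4.71 to 12.8-fold) from Kcna10. All 4 are intergenic and lie 39.3 to 61.8 kb past the end of Kcna2, which encodes a low-threshold channel of cerebellar axons, so the nearest start site assigns them to Kcna10. Kcna2 itself had no common region. Its region in a UTR, at chr3:107113608-107114211, had folds of 5.08, 8.47, 12.9 and 13.9 in the NfiA and NfiB libraries, no peak in NfiX CD1 and 8.8 in NfiX Mixed.

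Kcnd3 lies at chr3:105452330-105674002 on the plus strand. All 21 regions in its body fell in intron 2, which spans 199 kb or 89.6% of the transcript, and 6 of the 21 were common. The highest was chr3:105476326-105477162, 17.8 kb from the start site, with folds of 13.5, 13.3, 21.1, 16.1, 5.92 and 12.7. Further along the intron, chr3:105616544-105617795 had folds of 10.9, 8.03, 20.6, 9.37, 9.97 and 9.79, and chr3:105611465-105612820 had 11.3, 7.69, 18.5, 9.06, 8.27 and 11. Ddx20 has the start site nearest to both of the latter, 70.4 and 75.9 kb away. The other 2 common regions lay upstream, -39.9 and -59.4 kb from the start site. No region lay within 1 kb of a Kcnd3 start site.

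**Figure D3:**
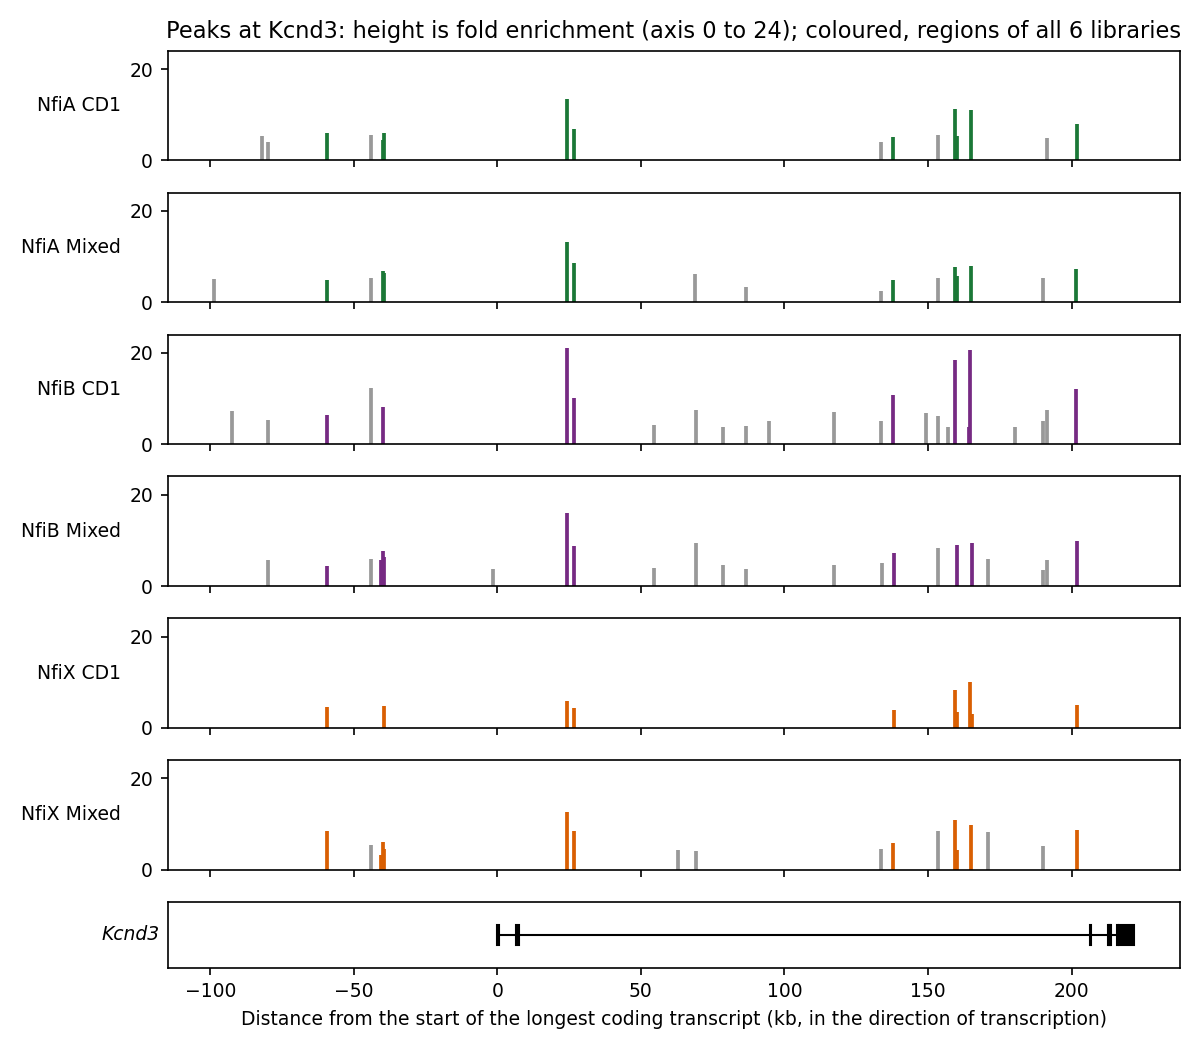
Peaks of the 6 libraries along Kcnd3, by distance from the start of its longest coding transcript (kb, horizontal axis), with height as fold enrichment (vertical axes, 0 to 24). Coloured lines belong to the 8 regions with peaks of all 6 libraries and grey lines to the others, and black boxes in the bottom row are exons. The coloured lines stand upstream of the gene and in intron 2.

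Kcnd2, another A-type pore gene, had 1 common region, at chr6:21684076-21684696 in intron 1, 469 kb from its start site, with folds of 10.5, 9.89, 7.72, 7.68, 6.78 and 10.5. This region holds the core palindrome printed above. The start site nearest to it is that of Tspan12, 167 kb away. The region lay in the body of Kcnd2, in an intron of 497 kb.

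Kcnh7 had its strongest region in intron 2 at chr2:62988546-62989095, 195 kb from the start, with folds of 16.2, 18.1, 27.2, 18.2, 10.5 and 16.4. A common region -33.5 kb from its start had folds of 7.73, 13.0, 14.5, 8.35, 11.3 and 16.3. Kcng4, whose product joins delayed rectifier channels and is silent alone, had 1 region, and it was common: chr8:119638268-119638680, -2.8 kb from its start, with folds of 10.5, 13.8, 16.8, 18.0, 9.04 and 14.1.

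Kcnb2, a delayed rectifier subunit, had 2 common regions in intron 2, the higher with folds of 7.67, 7.12, 12.4, 11.1, 6.16 and 7.69. Their summits lay 304 and 340 kb from the Kcnb2 start, and Terf1 had the nearest start site (-189 and -154 kb). Of the M-current genes, Kcnq5 had a common region in intron 12 at chr1:21411249-21412192, with folds of 10.4, 8.94, 11.3, 11.7, 6.16 and 11.3. This region lay 550 kb from the Kcnq5 start, and the nearest start site was that of Khdc1b, 28.2 kb away. Kcnq3 had its higher common region at chr15:66353859-66354303, -67.5 kb from its start, with folds of 7.63, 6.94, 12.2, 8.63, 6.71 and 9.64. Single common regions lay, among others, at Kcna3, Kcna5, Kcnc4, Kcnh1 and Kcns2, at 3.43 to 10.8-fold.

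Among the inward rectifiers, Kcnj6, a subunit of G-protein-gated channels, had the second highest common region of all members. It lay in intron 1 at chr16:94979398-94979955, 18.0 kb from the start, with folds of 15.7, 20.3, 16.5, 19.1, 18.0 and 23.7 and a mean percentile of 98.4. A common region -66.8 kb from Kcnj6 (6.88 to 16.6-fold) and others -88.1 kb (5.63 to 18.6-fold) and -54.2 kb (6.16 to 19.3-fold) from Kcnj15 lay in the interval between the start sites of these neighbouring genes. Kcnj3, which encodes another subunit of G-protein-gated channels, had 1 common region in intron 3, 43.3 kb from its start, with folds of 14.1, 7.8, 15.3, 13.8, 6.68 and 13.6.

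Among the two-pore channels, Kcnk13 had both of its common regions in intron 2. That at chr12:99988019-99988743 had folds of 14.7, 10.7, 17.7, 15.4, 5.24 and 11.3, and that at chr12:100003003-100003712 had 10.3, 8.01, 13.1, 10.9, 8.36 and 8.72. Kcnk10, a mechanically gated channel, had 2 common regions in introns 1 and 4, of 6.79 to 15.6-fold and 5.79 to 16.6-fold. Kcnk1 had common regions -35.5 and 68.7 kb from its start site, the latter with folds of 7.84, 7.99, 11.8, 13.9, 6.15 and 8.6. Kcnk3, an acid-sensitive leak channel, had 1 in intron 1 at chr5:30606308-30607087 (7.65, 6.45, 8.44, 9.05, 4.27 and 7.73) and 1 at -1.46 kb, the common member region closest to a start site. Kcnk9, which encodes a leak channel prominent in granule neurons, had none. Its region 52.1 kb from the start had folds of 5.9, 7.38, 7.86 and 8.98 in the NfiA and NfiB libraries, no peak in NfiX CD1 and 6.28 in NfiX Mixed.

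Among the calcium-activated channels, Kcnma1 had 28 regions and 3 common ones, all in introns. The highest was in intron 2 at chr14:23723563-23724562, with folds of 10.1, 8.88, 14.0, 10.5, 5.74 and 9.48. Kcnn3 had its highest in intron 1, 20.1 kb from the start, with folds of 8.01, 9.02, 13.9, 10.4, 6.47 and 10.7. Kcnn2, of the same family, had none, and its region of 5 libraries, in an intron, had folds of 7.26, 6.04, 5.9 and 6.89 in the NfiA and NfiB libraries and 5.05 in NfiX Mixed.

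Among the auxiliary genes, Kcnip4 had the highest common region of all members. It lay at chr5:49529285-49529751, -4.59 kb from the start site, with folds of 18.4, 17.9, 22.3, 18.8, 18.8 and 24.1 and a mean percentile of 98.9. In intron 1 of the same gene, chr5:49149649-49150951 had folds of 18.3, 17.1, 27.8, 18.5, 8.97 and 7.31, and a region 16.1 kb from a start site had 8.76, 13.0, 10.2, 7.93, 10.8 and 11.2. Kcnab1, the gene of a beta subunit that binds Kcna channels, had chr3:65055344-65055789, -53.8 kb from its start, with folds of 16.1, 14.6, 15.4, 12.6, 16.3 and 24.6. Kcne1l, which encodes a small membrane subunit, had chrX:142310454-142310799, -4.32 kb from its start, with folds of 11.5, 14.5, 15.3, 11.5, 12.1 and 19.6. Kcne4, of the same family, had chr1:78838421-78838940, 21.7 kb from its start, with folds of 13.4, 13.2, 17.8, 13.4, 9.86 and 14.4. Kcnip1 had a common region 16.1 kb from its start in intron 1, with folds of 8.16, 8.54, 15.8, 15.1, 8.53 and 9.38. Another Kcnip1 region, chr11:33974588-33975612, has its nearest start site at Kcnmb1, a BK channel beta subunit, and also lies in 4930469K13Rik. Its folds were 8.82, 8.76, 13.4, 11.8, 6.14 and 12.7, and it counts for both genes.

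**Figure D4:**
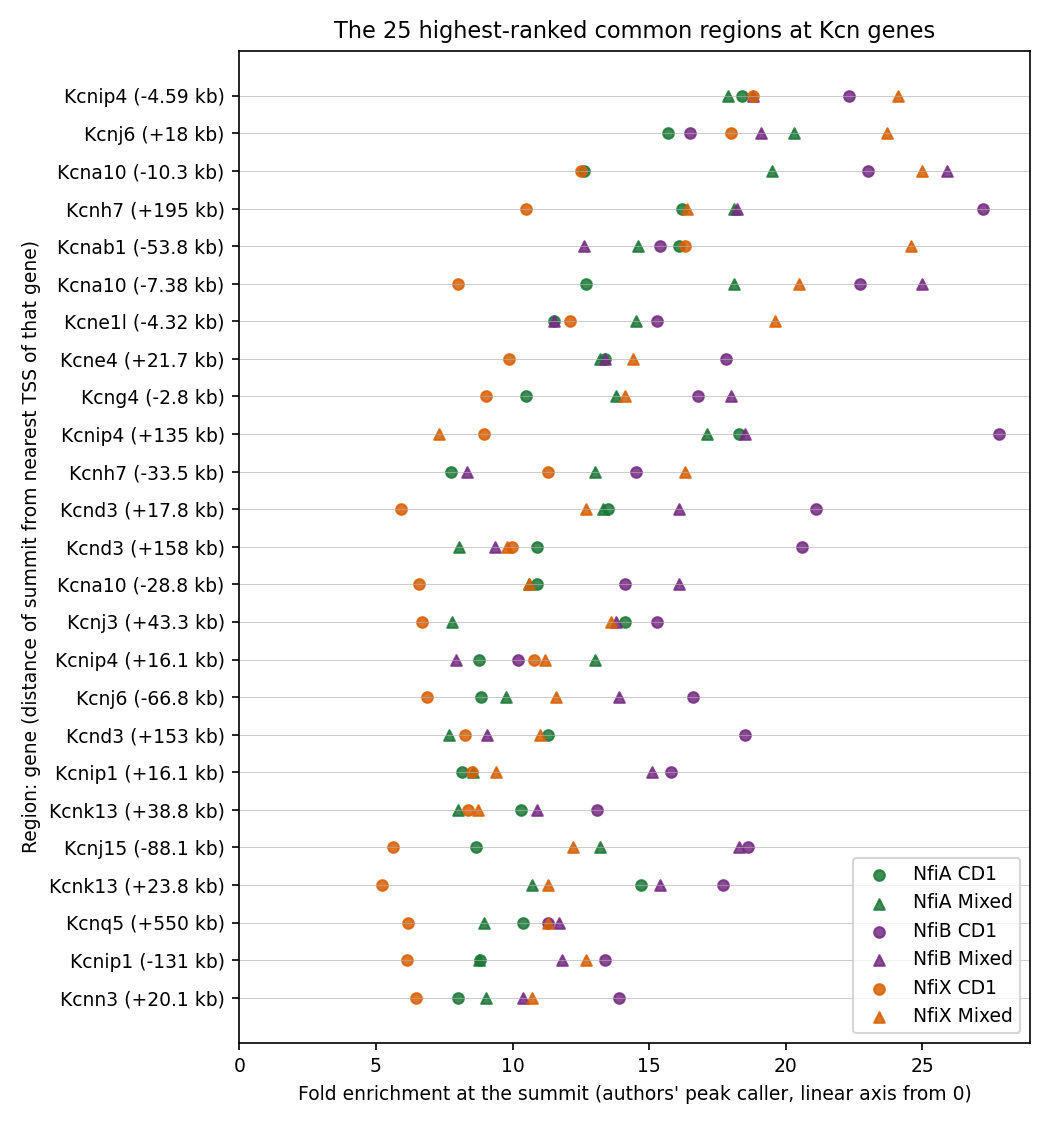
Fold enrichment at the summit (horizontal axis, linear from 0) of the 25 common regions at Kcn genes with the highest mean percentile, from the highest at the top. Labels give the gene and the distance from its nearest start site, colours the factor, circles CD1 and triangles Mixed libraries. The top region, upstream of Kcnip4, lies between 17.9 and 24.1 in all 6 libraries.

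At 12 regions of 10 genes, 5 or more libraries reached 10-fold: Kcna10 had 3 of them, and Kcnab1, Kcnd3, Kcne1l, Kcne4, Kcng4, Kcnh7, Kcnip4, Kcnj6 and Kcnk13 had 1 each. The cut was the same fold in every list. The same count over all regions was not made, so the 12 are not read as many or few. The median log2 fold of member peaks minus that of the other peaks of the same list was 0.05 ± 0.03 (SD, n = 6 libraries). It was 0.01 in NfiB CD1 and 0.10 in NfiA Mixed, the lowest and highest. When the 7497 strongest peaks of each list were used the mean difference was -0.01. Member peaks made up 0.967% ± 0.0306 of a list (SD, n = 6 libraries), from 0.944% in NfiB CD1 to 1.03% in NfiX CD1.

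The common regions were next placed relative to genes. Of the 60, 34 had their summit in an intron (56.7%), 24 were intergenic (40.0%) and 2 were in a UTR, 1 of them at Kcne4. Over all common regions 42.2% were in introns and 54.7% intergenic. From the nearest protein-coding start site of any gene, 9 of the 60 lay within 10 kb (15.0%, against 13.6% of all common regions) and 26 more than 50 kb away (43.3 against 57.5%). The median distance was 39.4 kb, against 70.1 kb for all common regions. The rule bears on this, since outside gene bodies it admits no region over 100 kb from a member's start. On the longest coding transcripts of the members, intron 1 held 45.0% of the intronic regions and 43.9% of the intronic bases, and intron 2 held 27.9% of the regions and 24.9% of the bases. Of the 32 common regions in these introns, 11 were in intron 1 and 12 in intron 2. The 12 in intron 2 included 6 of Kcnd3.

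Within 1 kb of a protein-coding start site lay 19 of the 429 member regions (4.43%, 2.85 to 6.81), against 8.46% of all regions. List length moved with this: with the 7497 strongest peaks of each list, 3 of 140 member regions were at promoters (2.14%, 0.731 to 6.11), against 2.31% of all regions, and the members' interval includes that share. Counted by gene, 16 of the 94 members (17.0%, 10.8 to 25.9) had such a promoter region, against 15.2% of all protein-coding genes. No common member region was at a promoter: 0 of 60, which allows a share of up to 5.0%, against 2.46% of all common regions. In each of the 6 libraries the members' promoter share was below that of all regions. It was 2.56 against 4.24% in NfiA CD1, 2.74 against 5.45% in NfiA Mixed, 4.42 against 8.55% in NfiB CD1 and 4.73 against 8.14% in NfiB Mixed. In NfiX CD1 it was 0 of 73, which allows up to 4.11%, against 2.43%, and in NfiX Mixed 1.53 against 3.98%. The libraries share regions, so these are not 6 independent counts.

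**Figure D5:**
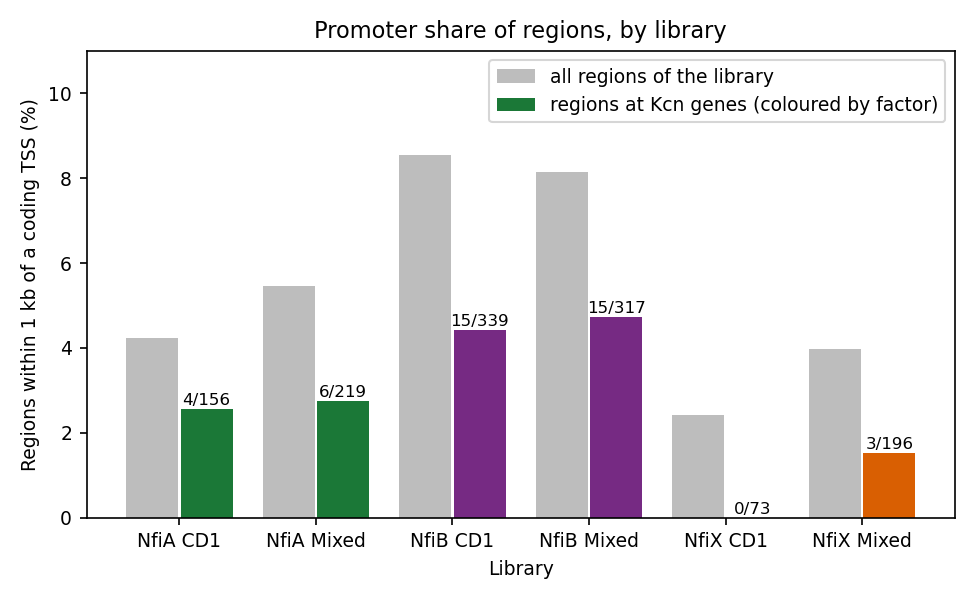
Share of a library's regions within 1 kb of a protein-coding start site (vertical axis, %), by library (horizontal axis), for all regions (grey) and for regions at Kcn genes (coloured by factor, with counts above the bars). The coloured bar is the lower of the pair in all 6 libraries, and NfiX CD1 has none of 73.

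All 19 promoter regions held a peak of at least 1 NfiB library, the factor with the longest lists. The widest shared were those of Kcnip3, whose product binds channels and DNA, and Kcnh2, an ether-a-go-go related channel. At Kcnip3 (chr2:127521902-127522541) the folds were 7.54, 3.89, 11.6 and 3.43 in the NfiA and NfiB libraries and 3.19 in NfiX Mixed. At Kcnh2 (chr5:24328873-24329903) they were 4.12, 4.64, 5.17, 3.49 and 4.22 in the same 5 libraries, and the Kcnh2 sequence printed above lies in this region. NfiX CD1 had no peak at either. The Kcnb2 promoter held peaks of both NfiA and both NfiB libraries, with folds of 6.22, 6.58, 7.97 and 8.17. Kcnip2 had peaks of 4 libraries at its promoter (7.17 in NfiA CD1, 4.82 and 4.94 in NfiB and 5.04 in NfiX Mixed). Kcnc2, Kcne1l and Kcnj3 had peaks of NfiA Mixed and both NfiB libraries, at 4.7 to 7.15, 3.48 to 8.0 and 2.9 to 3.53-fold. The other 12 promoter regions held NfiB peaks alone: Kcnh1, Kcnn2, Kcnj6 and a second Kcnip3 region in both NfiB libraries, and Kcnj16, Kcnk16, Kcna2, Kcnd2, Kcnj4, a second Kcne1l region and a pair at Kcnmb4 in 1 library each. These 12 had folds of 2.41 to 4.69. Peaks of both NfiB libraries and no other lay in 4 of the 19, and in 834 of the 3898 promoter regions of all genes. How many of the 3898 held any NfiB peak, or a peak of 1 NfiB library and no other, was not counted. The 19 and the 12 are therefore not read as many or few.

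RefSeq promoter sequences (250 bases before to 50 after a start, GRCm38.p6) matched 69 of the 94 genes, with 94 sequences in all. The full palindrome was in 0 of these 94 and in 0.0366% of all 32817 RefSeq promoters. The core was in 1 (1.06%) against 0.808%, and TTGGCA in 11 (11.7%) against 14.1%. Of the 10 member promoters that overlapped a peak, 2 held TTGGCA and none the core. The 250 bases upstream of a RefSeq start of Kcnip3, read 5′ to 3′ on the minus strand, are printed because peaks of 5 libraries overlapped them.
Kcnip3, chr2:127522095-127522344: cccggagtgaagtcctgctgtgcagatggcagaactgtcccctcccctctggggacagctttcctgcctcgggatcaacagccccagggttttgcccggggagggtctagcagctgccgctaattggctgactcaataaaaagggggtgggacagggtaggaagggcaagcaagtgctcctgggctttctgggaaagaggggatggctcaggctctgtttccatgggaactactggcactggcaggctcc

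Peaks were also compared by factor. Peaks of both NfiA and both NfiB libraries were found in 133 member regions (31%, 26.8 to 35.5), against 28.5% of all regions. Of the 133, 60 were the common regions and 73 lacked at least 1 NfiX library (17.0 against 15.3% of all regions), and 13 of the 73 had no NfiX peak (3.03 against 3.0%). Peaks of both NfiB libraries and no other lay in 47 member regions (11%, 8.34 to 14.3), where 9.73% of all regions were of that kind. No member region held peaks of both NfiA libraries alone, or of both NfiX libraries alone, which allows 0.699% for each. Of all regions, 0.0803% were of NFIA alone and 0.122% of NFIX alone. The counts of 1 factor alone moved with list length, and the NfiB lists were the longest. Cutting a list also drops its weaker peaks, and the cause of the change was not tested. With the 7497 strongest peaks of each library, 1 of 140 member regions each was of NFIB alone, NFIA alone and NFIX alone. Of all 14001 regions, 157, 76 and 212 were. The count of NFIB alone was 74 without NfiA Mixed, where 1 library fewer had to lack a peak. It was 91 without NfiB CD1 and 117 without NfiB Mixed, where a peak of the 1 NfiB library left was enough. The same counts over all regions were not made.

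The strongest region of NFIB alone, chr11:33976484-33976836, lay in Kcnip1 with Kcnmb1 as its nearest start site, next to the common region of these genes, and had folds of 13.5 in NfiB CD1 and 5.54 in NfiB Mixed. Kcnd2 had 2 in intron 1, with folds of 8.53 and 5.01 at chr6:21510996-21511312 and 6.82 and 8.35 at chr6:21686463-21686779. Others among the 10 highest lay at Kcnd3 (7.14 and 4.71), Kcnh7 (6.82 and 5.69), Kcnc2 (6.58 and 4.39), Kcnip2 (6.53 and 3.93, inside Armh3), Kcnj6 (6.43 and 4.7) and Kcnip4 (5.34 and 6.26). Of the 64 member regions with peaks of 5 libraries, 58 lacked NfiX CD1 (90.6%), at 39 genes. Over all 6167 regions of 5 libraries the share was 90.5%. The other 6 lacked NfiA CD1, NfiA Mixed or NfiX Mixed, 2 each, and none lacked an NfiB library.

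Several channel genes known from granule cells had no common region. Kcnc1, a fast delayed rectifier, had its widest shared region at chr7:46393136-46393637, -3.12 kb from its start, with folds of 2.92, 4.57, 7.14 and 7.12 in the NfiA and NfiB libraries and 6.62 in NfiX Mixed. Kcna1, a low-threshold subunit, had its widest shared region -22.4 kb from its start, with folds of 6.15, 5.0, 7.7 and 5.8 in the NfiA and NfiB libraries and no NfiX peak. Kcna2, Kcnk9 and Kcnn2, given above, also had none. Of the granule lineage genes listed for their currents, Kcnd2, Kcnj6, Kcnk1, Kcnk3, Kcnma1, Kcnq3 and Kcnip4 had at least 1. Over all protein-coding genes 13.1% had one, and 63.1% of those of 200 kb or more. Kcnip4 (1140 kb), Kcnma1 (725 kb), Kcnd2 (514 kb), Kcnq3 (300 kb) and Kcnj6 (249 kb) are in that range, as is Kcnn2 (417 kb). Kcnk1 (35.5 kb) and Kcnk3 (37.1 kb) are shorter.

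Near the 100 kb limit, the members just inside were Kcnrg (96.7 kb, 1 library, 3.49-fold) and Kcnd3 (-98.8 kb, 1 library, 5.05-fold). Just outside were regions of Kcnh7 (-104 kb, 3 libraries, highest fold 5.55) and Kcnmb2 (-109 kb, 6 libraries, highest fold 7.34). In all, 101 regions had a member as the nearest start site beyond the limit. When gene bodies alone were counted, 18 member genes had a common region, against 7.71% of all genes, and 35 member regions were common.

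Among 21 genes that encode partners or relatives of these channels under other symbols, 19 had a region and 9 had a common one. Over all protein-coding genes the shares were 48.2% and 13.1%. Cntnap2, which clusters Kcna channels at the axon, had 8 common regions and Dlg2, a scaffold of the same channels, had 7. Dpp6, a partner of A-type channels like the Kcnip proteins, and Ank3, the ankyrin of the axon initial segment, had 3 each. Abcc8 had 2, and Dpp10, Lrrc26 and Dlg1 had 1 each. The list holds very long genes, such as Cntnap2 (2240 kb) and Dlg2 (1970 kb). Of all protein-coding genes of 200 kb or more, 96.5% had a region and 63.1% a common one.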

How the data were processed

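ChIP-seq peaks of 6 libraries were used, 2 each for NFIA, NFIB and NFIX (replicate 1 is CD1 and replicate 2 Mixed). Per the submitters' processing notes, Bowtie2 2.2.6, SAMtools 1.4.1, MACS2 2.1.0 and build mm10 were used. How reads were filtered is not given in the sources used here, nor are the peak threshold and the role of the inputs. The files used here hold 1 list for each library. The authors' fold enrichment is a ratio over local background at the summit, and the deposited lists also hold −log10 p and −log10 q-values; the deposited score column was not used.

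Peaks of the 6 lists that shared 1 bp or more were merged (Python 3.11.15, pandas 2.3.3, numpy 2.4.6, scipy 1.17.1). The summit of the peak with the highest percentile of fold in its own list stood for a region. Genes came from GENCODE on GRCm38, sequences from its transcripts and from RefSeq promoters. The 225 windows found in both sources were identical. Merging and assignment were tested on simulated data.

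The members and the lists were chosen with earlier results of these data known, so counts, shares with 95% Wilson intervals and the same over all genes or regions are given, and no p-value. Limits on a share of 0 use 3 counts. Named were the 25 common regions with the highest mean percentile, the 10 genes with most common regions, the promoter regions in most libraries, the 10 highest regions of 1 factor alone, regions with 5 libraries at 10-fold, members over 50 kb without a region, and genes of the granule lineage. A few items that the rule names are not reported here. Kcnd1 and the full lists of promoter and common-region genes were added after their values were seen. Alternatives changed the q threshold, list length, overlap, assignment, promoter distance, motif and libraries.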

Additional observations from a re-analysis of the deposited data

How the results depend on the processing

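Of 111 values recomputed under an alternative, 86 were classed as unmoved, 24 as moved and 1 changed sign. The unmoved class was broad for counts. It took in 43 common member regions with a limit of 20 kb, against 60. It also took in 14 promoter regions at −log10 q of 5 or more, against 19. For the member share of peaks it was narrower, and 1.0 against 0.967% was classed as moved. The sign change was the log2 fold difference between member and other peaks, -0.01 with equal list lengths. Equal lists (7497 peaks each) gave 140 member regions, 36 common, 3 promoter regions, 1 region of NFIB alone, a member share of 1.07% of peaks and 6.93% of all genes with a common region; 21 member genes had one, each of them among the 30. Gene bodies alone gave 281 member regions, 35 common, 18 genes with a common region against 7.71% of all genes, a share of 0.623% and 31 regions of NFIB alone. The member share was 1.0% at −log10 q of 5 or more, 0.717% by nearest start site alone and 0.732% with a limit of 20 kb. Within 5 kb of a start site there were 53 member regions. The motif share was 29.4% with TTGGCA and 17.6% with the core palindrome, an alternative chosen after seeing the data. Leaving out each library in turn gave 365 to 428 member regions, 60 to 118 common, 65 to 69 genes with a region, 30 to 47 with a common one (13.2 to 21.2% of all genes), 17 to 20 promoter regions, a share of 0.955 to 0.972%, a log2 difference of 0.04 to 0.06 and 47 to 117 regions of NFIB alone. The highest common counts came without NfiX CD1. The highest counts of NFIB alone came without an NfiB library, where a peak of the NfiB library left was enough. No test was run, and the pairing of CD1 and Mixed libraries was not used. CD1 and Mixed name the background of a library, and whether libraries of 1 background share animals is not stated in the labels. Depth beyond the peak lists is unknown, and the short NfiX CD1 list limits what can be called common.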
